A study of Mus musculus with 2 samples.

Results

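The miR-103 and miR-107 family of the mouse has 3 microRNA genes, Mir103-1 (ENSMUSG00000065553.1), Mir103-2 (ENSMUSG00000065563.1) and Mir107 (ENSMUSG00000065594.1), and each lies inside a pantothenate kinase gene. All 3 were found by symbol in the GENCODE M21 annotation among the 2202 microRNA genes of the deposited count tables. The tables hold microRNA sequencing of gastrocnemius, the large calf muscle, from male mice of strain B6CASTF1/J, a first-generation hybrid, at 14 days of age, with no transgene or treatment in the labels. There was 1 group of 2 biological replicates with 1 library each. The label of each replicate mentions 3 males but does not say that they were pooled, and both carry the same donor identifier, so the spread given here is that between these 2 samples and may be partly technical.

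A microRNA is cut from a hairpin and guides an Argonaute protein to messenger RNAs, chiefly through its seed, bases 2 to 8 from the 5′ end. miR-103 and miR-107 are vertebrate microRNAs made mainly from the 3p arm of their hairpins. In mice they are known for lowering insulin sensitivity in liver and fat, with the caveolae protein gene Cav1 as a target, and in mammalian cells they also target Dicer1, which encodes the enzyme that cuts microRNA hairpins. Their host genes encode pantothenate kinases, which catalyse the first step of coenzyme A synthesis.

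The mature sequences of the family are printed here because they decide which reads can be given to 1 locus. They come from the RefSeq table of build GRCm38.p6, in which all 3 genes were found, and the capitals mark the seed, bases 2 to 8.
mmu-miR-107-3p (Mir107): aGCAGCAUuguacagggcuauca
mmu-miR-103-3p (Mir103-1 and Mir103-2): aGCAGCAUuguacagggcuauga
mmu-miR-107-5p (Mir107): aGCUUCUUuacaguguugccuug
mmu-miR-103-2-5p (Mir103-2): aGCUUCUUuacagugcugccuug
mmu-miR-103-1-5p (Mir103-1): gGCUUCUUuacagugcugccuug

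Mir103-1 and Mir103-2 encode the same 23-base 3p microRNA. Counted from 1 at the 5′ end, mmu-miR-107-3p differs from mmu-miR-103-3p by the single substitution G22C, next to the last base and outside the seed. Of 1679 mature names in the RefSeq table, these 2 alone had the seed GCAGCAU. The 5p arms share the seed GCUUCUU, and no other mature name had it. From mmu-miR-103-2-5p, mmu-miR-103-1-5p differs by A1G and mmu-miR-107-5p by C16U.

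The whole hairpins show where the family departs from itself, with both mature arms in capitals. Each was identical in the RefSeq and the GENCODE sequence.
Mir107: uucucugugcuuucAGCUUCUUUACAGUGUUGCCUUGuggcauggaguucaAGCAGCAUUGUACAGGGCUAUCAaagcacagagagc
Mir103-2: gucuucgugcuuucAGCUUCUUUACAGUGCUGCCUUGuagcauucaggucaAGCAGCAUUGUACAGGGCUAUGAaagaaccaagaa
Mir103-1: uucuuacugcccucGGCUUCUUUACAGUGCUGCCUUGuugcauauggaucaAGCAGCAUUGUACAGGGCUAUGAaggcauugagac

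Aligned end to end, Mir107 and Mir103-2 were identical at 83.9% of positions, Mir107 and Mir103-1 at 80.5%, and Mir103-2 and Mir103-1 at 80.2%. The longest stretch in common was 27 bases between Mir103-1 and Mir103-2, and 24 bases between Mir107 and either of them. Much of the difference lies in the loop and at the ends of the hairpin.

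A read that mapped to several loci is in no gene's count in these tables, so read length sets what each gene could receive. A search of the GENCODE hairpins of all 2202 genes asked how many loci held the same first bases of an arm, for lengths of 18 to 26. The first 18 to 21 bases of the 3p microRNA were the same at all 3 loci. From 22 bases on, the 3p stretch of Mir107 was found at Mir107 alone. The 3p stretch of Mir103-1 and Mir103-2 was shared by both up to 24 bases and became distinct at 25 bases, past the end of the mature sequence. On the 5p side every member was distinct from 18 bases on when the read began at the annotated first base.

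**Figure D1:**
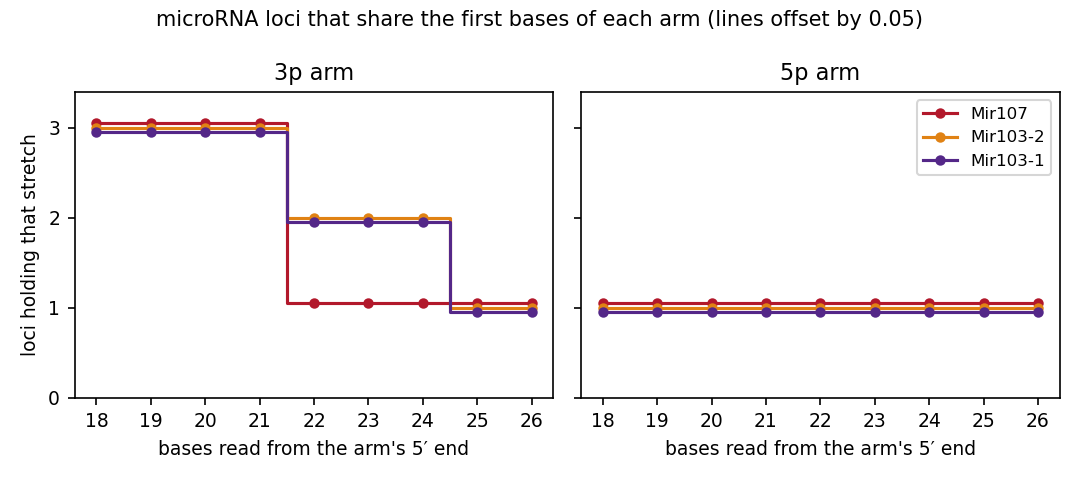
Number of microRNA loci in the tables (vertical axis) whose hairpin holds the first 18 to 26 bases of each arm (horizontal axis), for the 3p arm on the left and the 5p arm on the right, with lines moved apart by 0.05. The 3p line of Mir107 drops to 1 locus at 22 bases, while those of Mir103-2 and Mir103-1 stay at 2 loci until 24 bases.

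For the 3p arms, though not the 5p arms, such sharing was found in a minority of microRNAs. Of 1678 mature arms of 1018 genes that could be placed in a hairpin of the tables, 1521 (90.6%) were distinct at 18 bases and 138 (8.22%) only at 22 bases or more, or not within 26 bases of hairpin. The search covered exact matches within annotated hairpins and no other part of the genome. The tolerance of the authors' alignment for mismatches was not given in the sources used here. The labels give a size range under 30 bases, and the length of individual reads was not analysed here.

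Mir107 lies on chromosome 19 of build mm10 (34820687 to 34820773, minus strand) in an intron of Pank1. Mir103-2 lies on chromosome 2 (131288052 to 131288137, plus strand) in Pank2, and Mir103-1 on chromosome 11 (35782396 to 35782481, plus strand) in Pank3. All 3 were on the host's own strand and in intron 5 of its principal protein-coding transcript, each of which has 7 exons. The hairpin began 326 bases into a 7282-base intron of Pank1, 454 bases into a 5801-base intron of Pank2 and 688 bases into a 1740-base intron of Pank3. Pank4, the remaining gene of the host family, held no microRNA gene of the tables. The libraries measured small RNA only, so the level of the host transcripts was not analysed here.

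Replicate 2 held 2211254 reads assigned to a microRNA gene and replicate 1 held 2743657, the totals behind every CPM (counts-per-million, over assigned reads) below. Reads that mapped to several loci numbered 4266018 (52.1%) of the reads of replicate 2 and 4421485 (44.0%) of those of replicate 1, and how many of them came from miR-103 or miR-107 was not analysed here. A count of 0 would allow up to 3 counts, which is 1.36 CPM at the depth of replicate 2 and 1.09 CPM at that of replicate 1. All 9 skeletal muscle marker microRNAs had a count, and Mir206 made up most of their sum, at 67909 CPM in replicate 2, against 68288 CPM in replicate 1. Mir1a and Mir133a have 2 loci each, and reads that mapped to both are in no count. The sum therefore does not rank the muscle microRNAs by amount. Intervals are 95% intervals for counting error only, since reads copied by PCR are not independent molecules.

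Mir107 carried nearly all the reads assigned to the family. It had 584 counts (95% exact Poisson interval 538 to 633), or 264 CPM, in replicate 2 and 551 counts (506 to 599), or 201 CPM, in replicate 1. Its mean was 232 CPM ± 44.7 (SD, n = 2), and both libraries lay far above the limit for a count of 0.

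Mir103-2, one source of miR-103, had 33 counts (22.7 to 46.3), or 14.9 CPM, in replicate 2 and 21 counts (13.0 to 32.1), or 7.65 CPM, in replicate 1. Its mean was 11.3 CPM ± 5.14 (SD, n = 2). Both libraries were above the limit for a count of 0, at a small fraction of the level of Mir107.

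Mir103-1, the other source of miR-103, had 1 count (0.0253 to 5.57), or 0.452 CPM, in replicate 2 and 4 counts (1.09 to 10.2), or 1.46 CPM, in replicate 1. Its mean was 0.955 CPM ± 0.711 (SD, n = 2). Replicate 2 lay under the limit for a count of 0 and replicate 1 just over it, so at this depth its assigned reads could hardly be told from none. No read was counted on the opposite strand of any member in either library.

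**Figure D2:**
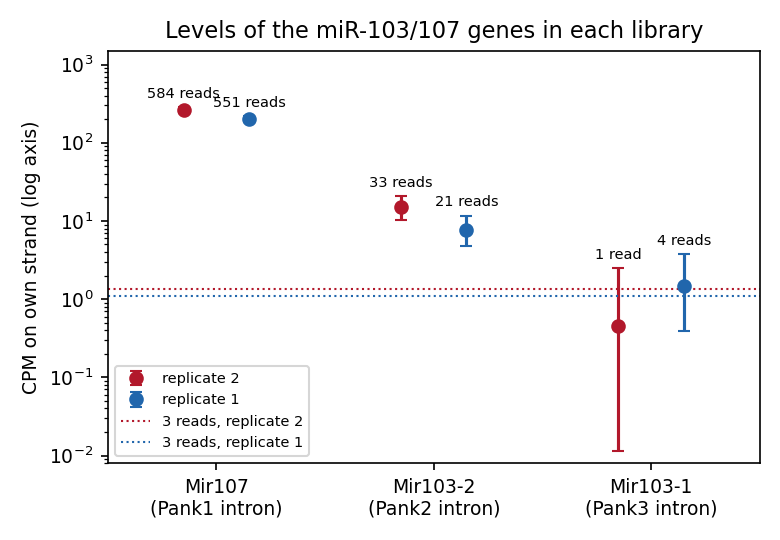
CPM on the gene's own strand (vertical log axis) of each member in replicate 2 (red) and replicate 1 (blue), with 95% exact Poisson intervals and the read counts beside the points; dotted lines mark 3 reads. Mir107 stands at 264 and 201 CPM, Mir103-2 at 14.9 and 7.65 CPM, and Mir103-1 at 0.452 and 1.46 CPM.

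Together the 3 genes held 0.0279% (95% Wilson interval 0.0258 to 0.0302) of the assigned reads of replicate 2 and 0.0210% (0.0193 to 0.0228) of those of replicate 1. Mir107 made up 94.5% of the reads of the family (92.4 to 96.0) in replicate 2 and 95.7% (93.7 to 97.0) in replicate 1. These shares are of reads assigned to 1 locus. They do not give the proportion of miR-107 to miR-103 molecules, because the 3p reads of both that are 21 bases or shorter, and those of miR-103 up to 24 bases, match several loci.

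The order Mir107, Mir103-2, Mir103-1 was the same in both libraries. Mir107 had 17.7 times the counts of Mir103-2 in replicate 2 (95% exact interval 12.5 to 25.96) and 26.2 times in replicate 1 (17.0 to 42.7). Mir103-2 had 33 times the counts of Mir103-1 in replicate 2 (5.52 to 1342) and 5.25 times in replicate 1 (1.77 to 21.04). All 6 comparisons of a pair within a library passed a two-sided exact binomial test against equal counts. The largest Benjamini-Hochberg adjusted p of that test was 0.000911, for Mir103-2 against Mir103-1 in replicate 1. Equal amounts would not give Mir107 and a miR-103 locus equal counts, since 3p reads of 22 to 24 bases could be assigned to Mir107 alone. The tests therefore describe assigned reads and not the amounts made at the loci. The ratio of Mir107 to the summed miR-103 loci was 17.2 in replicate 2 and 22.04 in replicate 1, a mean of 19.6 ± 3.44 (SD, n = 2).

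Among all 2202 genes Mir107 ranked 136 by mean CPM, Mir103-2 ranked 265 and Mir103-1 ranked 414, with 629 genes having any count. Introns of protein-coding genes on the same strand held 795 of the 2202 genes. Of these, 302 had a count, and Mir107 was at place 48 among them, Mir103-2 at 104 and Mir103-1 at 175. The median over the intronic genes with a count was 1.52 CPM, and over all genes with a count 3.35 CPM.

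**Figure D3:**
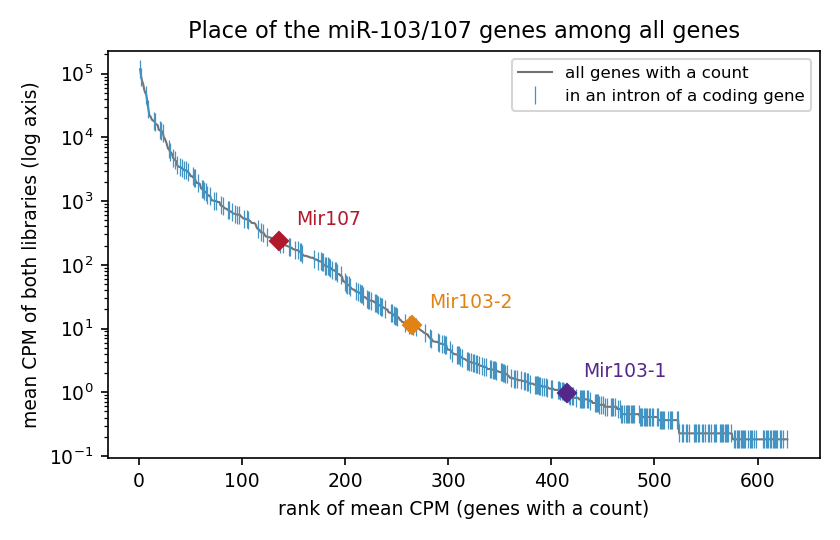
Mean CPM of both libraries (vertical log axis) against rank among the 629 genes with a count, with blue ticks for genes in an intron of a protein-coding gene and diamonds for the members. Mir107, Mir103-2 and Mir103-1 stand at ranks 136, 265 and 414.

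The genes next to Mir107 in that order were Mir1a-2 (246 CPM ± 68.2), 1 of 2 loci of a muscle microRNA, and Mir615 (236 CPM ± 33.5), in a Hox gene cluster, above it, and Mir467e (213 CPM ± 1.00) and Mirlet7f-1 (213 CPM ± 23.7) below it. Next to Mir103-2 stood Mir5113 (11.4 CPM ± 1.41) and Mir29b-1 (11.4 CPM ± 1.99) above, and Mir383 (10.8 CPM ± 7.07) and Mir6240 (10.8 CPM ± 3.78) below. Each of these neighbours differed from its member by less than the larger of the 2 spreads, so the exact places carry little weight. Mir103-1 shared its place with genes of the same counts, such as Mir1947 and Mir6956, with 1 count in replicate 2 and 4 in replicate 1 each, and Mir1191b and Mir3065 stood above it at 0.999 CPM ± 0.134 each.

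miR-103 and miR-107 belong to the miR-15 and miR-107 group, microRNAs known for roles in cell division, metabolism and stress. The group is known for the hexamer AGCAGC, printed in capitals below to show that it starts at base 1 in miR-103 and miR-107 and at base 2 in the other microRNAs shown.
mmu-miR-107-3p: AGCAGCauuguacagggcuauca
mmu-miR-103-3p: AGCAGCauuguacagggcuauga
mmu-miR-322-5p: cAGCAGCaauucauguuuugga
mmu-miR-195a-5p: uAGCAGCacagaaauauuggc
mmu-miR-15a-5p: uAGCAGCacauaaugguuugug
mmu-miR-15b-5p: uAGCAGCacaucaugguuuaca
mmu-miR-16-5p: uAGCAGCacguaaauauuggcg
mmu-miR-497a-5p: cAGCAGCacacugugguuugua
mmu-miR-503-5p: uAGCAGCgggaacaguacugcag

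The one-base shift gives miR-103 and miR-107 another seed than the rest of the group. AGCAGC, searched on the microRNA's own strand within its first 8 bases, was found in 13 of 1679 mature names (0.774%). A match is a description of the letters and says nothing of shared targets.

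By assigned reads Mir107 was among the lower members of the group. Of 10 further group genes in the tables, 8 reached 10 CPM in both libraries and 2, Mir195b and Mir497b, had no count. Mir322, which restrains the myoblast cell cycle, was at 13175 CPM ± 388. Mir195a (1920 CPM ± 398), Mir15a (1001 CPM ± 139) and Mir15b (726 CPM ± 20.97), known for restraining cell division, were also above Mir107 by more than the spread.

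Mir503, a neighbour of Mir322, was at 270 CPM ± 38.3 and could not be told from Mir107 within the spread between libraries. Mir16-2 (157 CPM ± 8.14) was the 1 group gene with reads that was lower than Mir107 and higher than Mir103-2. Mir16-1 and Mir16-2 encode the same mature microRNA, so their counts too leave out reads that mapped to both.

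**Figure D4:**
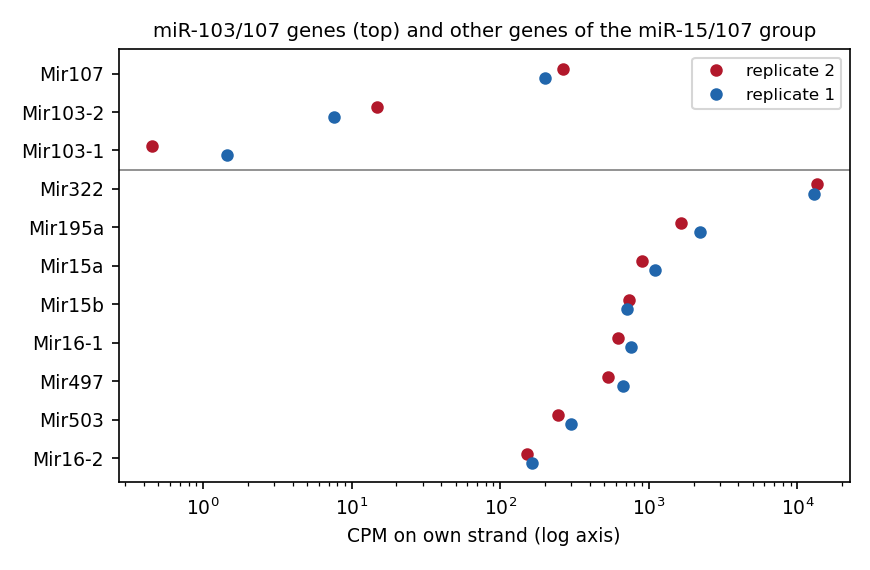
CPM on the gene's own strand (horizontal log axis) in replicate 2 (red) and replicate 1 (blue) for the 3 members above the line and the 8 other miR-15 and miR-107 group genes with a count below it. Mir107 lies in the range of Mir503 and Mir16-2, and Mir103-2 and Mir103-1 lie below every other gene shown.

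Of 12 microRNA genes known for insulin signalling or glucose handling, all had a count, 7 reached 10 CPM in both libraries and 4 were above Mir107. Mir29a, which dampens insulin signalling in muscle and fat cells, was at 259 CPM ± 59.9 and close to Mir107 within the spread. Mir143, reported to impair insulin-stimulated AKT activation in mouse liver, was at 34797 CPM ± 1266. Mir378a, in an intron of Ppargc1b, was at 117291 CPM ± 8973, and the endothelial Mir126a at 89259 CPM ± 12484. Mir223 (139 CPM ± 0.236) and Mir29c (129 CPM ± 6.13) were lower than Mir107 by more than the spread. Mir802, known from obese mouse liver, had 0 counts in replicate 2 and 1 in replicate 1.

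miR-103 is widely used as a reference in RT-qPCR of microRNAs. Of 9 other genes used in that way, 7 were above Mir107 by mean level, and all 9 were above Mir103-2. Among the 7, Mirlet7a-1 (248 CPM ± 19.1) could not be told from Mir107 within the spread between libraries. Mir191 was at 5384 CPM ± 232, Mir93 at 1523 CPM ± 223, Mir16-1 at 686 CPM ± 95.004 and Mir425 at 639 CPM ± 83.0. A primer for the mature sequence would read miR-103 from both loci, which these counts do not.

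Other microRNAs made from a pair of loci were also counted unequally at their copies. Of 21 such pairs in the tables, 18 had a mature sequence in common in the RefSeq table. The loci of Mir1a and of Mir133a were not all found there under these symbols, so those pairs could not be checked. The Mirlet7a loci had no identical sequence listed. By summed level the Mir103 pair stood at place 19 of 21, at 12.2 CPM against a median of 229 CPM over the pairs. The median ratio of the higher to the lower copy was 4.20 over pairs with reads at both loci. In 5 of the 21 pairs, Mir103 among them, the lower copy had 3 counts or fewer in at least 1 library, so their ratios are uncertain, as the 33 times and 5.25 times of Mir103-2 over Mir103-1 show. The 3 pairs with the highest sums were Mirlet7f (3847 CPM), Mir196a (1019 CPM) and Mir128 (929 CPM). In 20 of 21 pairs the same locus was higher in both libraries.

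To see how far the replicates differ, replicate 2 was set against replicate 1 for the 258 genes that had at least 10 CPM in each. Of the members, Mir107 alone passed that filter, since Mir103-2 was under 10 CPM in replicate 1 and Mir103-1 in both. Mir107 was 1.30 times as high in replicate 2 as in replicate 1 with TMM library sizes, a log2 ratio of 0.38 (95% exact interval 0.21 to 0.55; two-sided exact binomial test, Benjamini-Hochberg adjusted p = 3.72e-05 over all genes tested). The test sets 1 library against 1 library and takes in no error other than counting. By the same rule 24% of the genes tested were higher in replicate 2, 27.9% lower and 51.9% called in either direction, so a call such as that of Mir107 was common. With edgeR's exact test, which adds the spread between the libraries over all genes (common biological coefficient of variation 12.6%), the adjusted p of Mir107 was 0.990 and 3 of 258 genes were called (17 at an unadjusted p under 0.05). All 3 (Mir137, Mir138-1 and Mir1249, named here for these calls) were higher in replicate 2, and none was lower. The spread in edgeR's exact test was estimated from the same 2 libraries that it compares. Differences between them over many genes widen that spread, so few calls were likely and their small number says little.

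The log2 ratio of Mir107 ranked 22 from the top among the 258, and 15.9% of the genes had a larger ratio in absolute size. Among the 65 genes within 1 log2 unit of its mean level, Mir107 included, 31 were called in either direction. Mir103-2, outside the test, had a ratio of 1.93 (95% exact interval 1.08 to 3.50) and Mir103-1 one of 0.306 (0.00622 to 3.10), an interval that spans both directions. The summed family had a ratio of 1.32 (1.17 to 1.48), set by Mir107.

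The counts of called genes in the lists can be read against the 24% higher and 27.9% lower over all genes tested, and edgeR's exact test called no gene of these lists. Of 8 other miR-15 and miR-107 group genes tested, 1 was higher in replicate 2 (Mir322, log2 ratio 0.04) and 5 were lower, among them Mir195a (−0.44) and Mir503 (−0.31), with a median of −0.30 beside −0.01 over all genes tested. Of 7 insulin and glucose genes tested, 3 were higher and 2 lower (median 0.08), with Mir29a at 0.46 and Mir126a at −0.30. Of 9 RT-qPCR reference genes tested, 3 were higher and 3 lower, with ratios from −0.30 for Mir16-1 to 0.38 for Mirlet7a-2 and a median of −0.04.

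**Figure D5:**
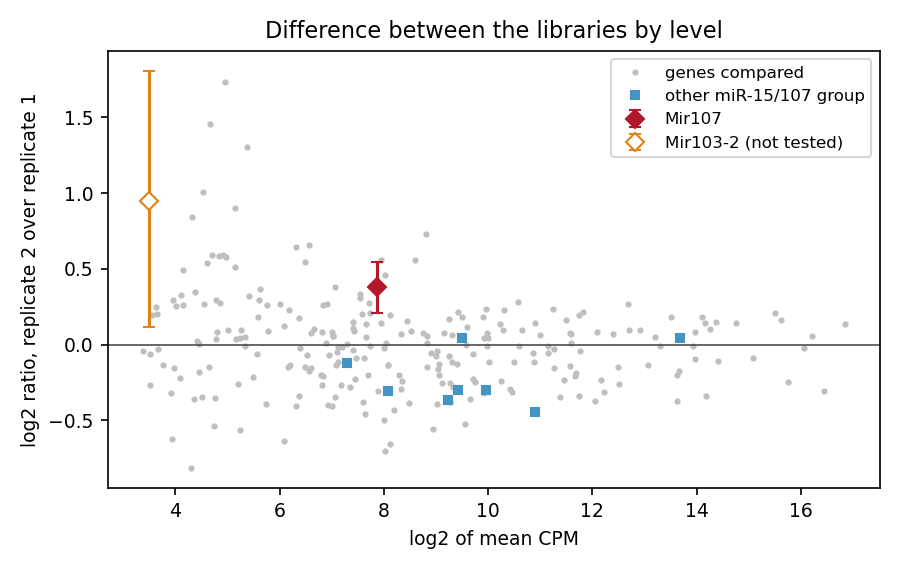
Log2 ratio of replicate 2 over replicate 1 with TMM library sizes (vertical axis) against log2 of mean CPM (horizontal axis) for the 258 genes compared, with other miR-15 and miR-107 group genes as blue squares and 95% exact intervals for Mir107 and for Mir103-2, which was outside the test. Mir107 lies at 0.38, above 0. Of the 8 group genes, 5 were called lower by the exact binomial test, beside 27.9% of all genes tested. None of the 8 was called by edgeR's exact test. Mir103-1 is left out of the plot for its wide interval.

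By the same binomial test, 5 of 7 skeletal muscle markers tested were called, 3 higher and 2 lower in replicate 2, with Mir133b at a log2 ratio of 0.59, Mir1a-2 at 0.56 and Mir499 at −0.66. Over all genes tested 51.9% were called in either direction, a share to set beside every marker call given here. Some microRNAs used as markers of other cells also differed. The 2 erythroid markers, Mir144 and Mir451a, both called, summed to 571 CPM in replicate 2, against 384 CPM in replicate 1. Mir126a of the endothelium, called lower, had 80432 CPM in replicate 2, against 98087 CPM in replicate 1. The 2 adipocyte-enriched markers, Mir378a and Mir335, both called higher, summed to 142526 CPM in replicate 2, against 127397 CPM in replicate 1. Mir378a made up most of that sum. Its mean of 117291 CPM was the highest of any gene and above that of the muscle marker Mir206 (68099 CPM). Whether these reads came from adipocytes was not tested, so the sum is no measure of fat in the samples. The liver marker Mir122 had 132 CPM in replicate 2, against 108 CPM in replicate 1. It was called higher only just, with adjusted p = 0.0489 in the exact binomial test. Of 7 neuron markers in the tables, Mir137 and Mir9-3 had reads, 48.4 CPM together in replicate 2, against 14.2 CPM in replicate 1. Mir137 alone supplied 47.9 of the 48.4 CPM and all of the 14.2 CPM. The other 5, the Mir124a loci among them, were at 0. Mir124a and Mir9 have several loci each, and reads that mapped to more than 1 locus are in no count. Counts of 0 at these loci therefore do not show that the microRNAs were absent.

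Other marker sets lay closer together. The 4 leukocyte markers summed to 1048 CPM in replicate 2, against 977 CPM in replicate 1, and none of them was called, with Mir155 at an unadjusted p of 0.0292 in the exact binomial test (adjusted p = 0.0550). The smooth muscle markers Mir143 and Mir145a summed to 34920 CPM in replicate 2, against 36704 CPM in replicate 1, and Mir143 was called lower (log2 ratio −0.09). Of these marker genes edgeR's exact test called Mir137 alone. The part of these differences in that of Mir107 was not tested. In whole muscle a change in the number of cells of a type and a change in the RNA per cell cannot be told apart.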

How the data were processed

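Small RNA of 2 replicate gastrocnemius samples was measured. The deposited counts are whole reads per microRNA gene, not normalized, with 1 table per library, on build mm10 with annotation M21 per the file notes. For the aligner, counter and trimming: not given in the sources used here. The column for the gene's own strand was used. Lines that named no gene stayed out of library sizes: 73.0% of reads in replicate 2 and 72.7% in replicate 1, unmapped and multimapping reads included.

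CPM was computed here over all genes. The libraries were compared across all genes with at least 10 CPM in each by a two-sided exact binomial test with TMM sizes (edgeR 4.0.16, R 4.3.3) and Benjamini-Hochberg adjustment at 0.05. edgeR's quasi-likelihood test could not be fitted with 1 group. The comparison was tested on simulated Poisson counts. These hold no spread between libraries beyond counting, so the simulation does not show how the test behaves with the spread seen here. Alternatives were DESeq2 1.42.0 sizes, total sizes, other filters, either strand and edgeR's exact test. Intervals used scipy 1.17.1. Sequences are from RefSeq (GRCm38.p6) and GENCODE.

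The members and gene lists were chosen with earlier results of these data known. Besides the members, the genes named were the 2 neighbours on each side of each member by mean CPM and up to 4 genes with the highest level from each list. Others (Mir503, Mir16-2, Mir195b, Mir497b, Mir223, Mir29c, Mir802, Mirlet7a-1, Mirlet7a-2 and marker genes) were chosen after their values were seen.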

Additional observations from a re-analysis of the deposited data

How the results depend on the processing

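The levels depend on what they are divided by. Over the reads of the whole library the means were 63.1 counts-per-million for Mir107 and 3.06 for Mir103-2, with a family share of 0.00664%. Without the 10 most abundant genes they were 562, 27.3 and, for Mir103-1, 2.30 CPM, with a share of 0.0591%. Counted on either strand, which lowers the total, Mir107 was at 303 CPM and the share 0.0319%. With 1 replicate left out Mir107 ranged between 201 and 264 CPM, the share between 0.0210% and 0.0279%, and the ratio of Mir107 to the miR-103 loci between 17.2 and 22.04. That of Mir103-1 to Mir103-2 ranged between 0.0303 and 0.190.

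The log2 ratio of Mir107 between the libraries was 0.35 to 0.43 under all settings run. It passed the exact binomial test with the settings reported and under 5 alternatives, and not edgeR's exact test (0.38, adjusted p = 0.990), by which 3 genes were called in place of 134. With either strand counted, Mir103-2 entered the test and passed it (0.95, adjusted p = 0.0438). Its counts were unchanged, at 33 in replicate 2 and 21 in replicate 1, and it reached 10 CPM only because the total was lower. With any count admitted Mir103-2 did not pass (0.92, adjusted p = 0.117). Under the other settings Mir103-1 and Mir103-2 fell to the filter. No paired analysis was possible because there was 1 group. Mir103-1 had only 1 and 4 counts, which leaves its ratio between the libraries open in direction.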
